A study of Arabidopsis thaliana with 12 samples.

Results

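The core flavonoid and anthocyanin enzymes are 9 genes of the 31916 named in the deposited tables of Arabidopsis thaliana. They were taken by gene identifier, with no threshold on their values, though with earlier results of these data known: CHS (AT5G13930), CHI (AT3G55120), CHIL (AT5G05270), F3H (AT3G51240), F3'H (AT5G07990), FLS1 (AT5G08640), DFR (AT5G42800), LDOX (AT4G22880) and 4CL3 (AT1G65060). RNA sequencing of seedlings gave 12 libraries in 4 groups of 3, from seeds kept at 4 °C for 3 days, lit for 12 h and grown for 4 days in the dark. The groups were wild type (Col) kept in darkness, wild type given 6 h of white light, and the mutants det1-1 and pifq, both kept in darkness. DET1 is a nuclear repressor of light-type development, and det1-1 is known as a partial loss-of-function allele. The mutant pifq lacks the function of PIF1, PIF3, PIF4 and PIF5, bHLH factors that promote growth in the dark. All 4 groups share the dark growth, and the same dark wild type is the reference of all 3 comparisons.

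Flavonoids are built from a product of phenylalanine and from malonyl-CoA. Chalcone synthase makes the first flavonoid skeleton, and hydroxylases then shape it into dihydroflavonols. There the path divides: flavonol synthase makes the colourless, ultraviolet-absorbing flavonols, and dihydroflavonol reductase opens the route to the purple anthocyanins. In Arabidopsis the steps down to flavonols are known as early genes, driven by flavonol MYB factors and HY5, and the anthocyanin steps as late genes, driven by a complex of MYB, bHLH and WD40 proteins. Seedlings make both kinds of pigment when they meet light.

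The tables hold a single FPKM value (fragments of a transcript scaled to its length and to the fragments mapped) per gene and group. They hold no value per library, so no value below has an SD, the depth is unknown, and no difference has a replicate check or a test. A gene is called higher or lower where its FPKM was 2-fold or more away from that of dark wild type. The labels were checked first: PIF3 stood at 0.802 FPKM in pifq against 30.2 FPKM in its dark reference, PIF5 at 1.39 against 9.44 FPKM, and PORA, an enzyme of chlorophyll synthesis abundant in etiolated seedlings, at 3.08 FPKM in light against 178 FPKM. PIF1 (23.7 against 19.2 FPKM) and PIF4 (20.9 against 20.5 FPKM) were not lower in pifq, and whether the reads span the mutated parts is not given in the sources used here. For the same dark libraries PIF4 was 11.2 FPKM beside light and 10.4 FPKM beside det1-1. Its values beside pifq are therefore less secure. DET1 was 16.7 FPKM in det1-1 against 15.1 FPKM, not lower, so its level gives no check of that label. In dark wild type both PORA (161 to 178 FPKM over the tables) and CASP1, a membrane protein of the root endodermis (342 to 376 FPKM), were present. CASP1 was 396 FPKM in light, 133 FPKM in det1-1 and 128 FPKM in pifq. The part of tissue make-up in the results below was not tested, and fewer cells of a type cannot be told apart from less RNA per cell.

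The dark wild type libraries were quantified in each table, which shows how far a level depends on that step. After scaling each table by the median ratio to the light table (1.08 for det1-1, 1.03 for pifq), all 9 genes agreed within 1.1-fold between the light and det1-1 tables. In all 3 tables only CHS, CHI, F3'H, DFR and 4CL3 did so, by at most 1.004-fold. The pifq table gave CHIL 1.71-fold, FLS1 1.58-fold, LDOX 4.50-fold (its 2 entries added) and F3H 72.9-fold the light table's value for the same dark libraries. F3H was 0.721 FPKM beside light, 0.669 FPKM beside det1-1 and 51.0 FPKM beside pifq. The cause was not tested. The pifq values of these 4 genes are therefore less secure than the rest, and no direction is given for F3H in pifq.

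The stretches before 4 of the genes, chosen as the entry enzyme, the dihydroflavonol step and the first enzyme of each branch, are shown to let their letters be read beside their levels. They are the 250 bases before the annotated transcript start in RefSeq's TAIR10.1 build, the RefSeq form of the TAIR10 build named in the submitters' processing notes, on the gene's own strand. Capitals mark CACGTG (the G-box, bound by bZIP and bHLH factors), any other ACGT, and the MYB-type letters ACCTANC and ACCAANC, on either strand. CHS lies before chr5:4488476-4490264 (plus strand), F3H before chr3:19025192-19026872 (plus), FLS1 before chr5:2803833-2805606 (plus) and DFR before chr5:17164093-17166032 (minus, so its stretch runs from chr5:17166282 down to 17166033).
CHS: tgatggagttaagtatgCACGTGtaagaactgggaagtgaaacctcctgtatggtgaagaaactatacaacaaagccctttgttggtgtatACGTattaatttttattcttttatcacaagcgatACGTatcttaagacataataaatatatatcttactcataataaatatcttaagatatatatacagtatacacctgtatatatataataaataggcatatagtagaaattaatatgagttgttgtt
F3H: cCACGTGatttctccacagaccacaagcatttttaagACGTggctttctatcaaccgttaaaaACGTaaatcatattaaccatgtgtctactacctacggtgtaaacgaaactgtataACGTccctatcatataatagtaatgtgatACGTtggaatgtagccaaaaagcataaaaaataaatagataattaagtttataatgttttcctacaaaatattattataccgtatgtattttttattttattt
FLS1: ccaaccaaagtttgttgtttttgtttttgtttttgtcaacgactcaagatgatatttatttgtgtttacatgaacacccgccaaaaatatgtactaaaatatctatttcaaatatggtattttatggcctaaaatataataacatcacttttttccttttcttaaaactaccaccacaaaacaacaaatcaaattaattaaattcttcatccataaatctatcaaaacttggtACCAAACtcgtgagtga
DFR: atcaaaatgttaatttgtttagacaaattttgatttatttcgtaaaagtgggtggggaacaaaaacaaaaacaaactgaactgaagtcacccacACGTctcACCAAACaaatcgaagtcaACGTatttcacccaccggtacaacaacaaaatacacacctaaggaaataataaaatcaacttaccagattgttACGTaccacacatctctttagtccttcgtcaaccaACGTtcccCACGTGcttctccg
CACGTG lay in this window of CHS, CHIL, F3H and DFR, 4 of 9 genes, and in 6.49% of 27442 protein-coding genes. Its first base lay at -233 in CHS, -67 in CHIL, -249 in F3H and -14 in DFR, counted from the base before the transcript start as -1. ACGT, which every CACGTG also contains, was in the same 4 genes and in 44.1% of all windows. ACCTANC was in CHIL and 4CL3 (5.55% of all windows), and ACCAANC in F3'H, FLS1, DFR, LDOX and 4CL3 (15.6%). CANNTG, which also matches every CACGTG, was in 6 of 9 genes and in 55.3% of all windows, and CACGTA or its reverse complement TACGTG was in 0 of 9 and in 6.77%.

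The annotated start decides what such a window holds. In the RefSeq annotation the start of CHS lies 286 bases before its start codon. In the 250 bases before the start codon instead, a choice made after the first scan, CHS held TACGTG or its reverse complement at -174 and ACCTANC at -144 and -66 from the codon. FLS1 held TACGTG or its reverse complement at -148. ACCTANC was then in 5 of 9 genes (CHS, CHI, CHIL, F3H and 4CL3) and in 5.48% of all such windows, while CACGTG was in CHI and DFR (5.22%). A match is a description of letters and shows no binding.

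**Figure D1:**
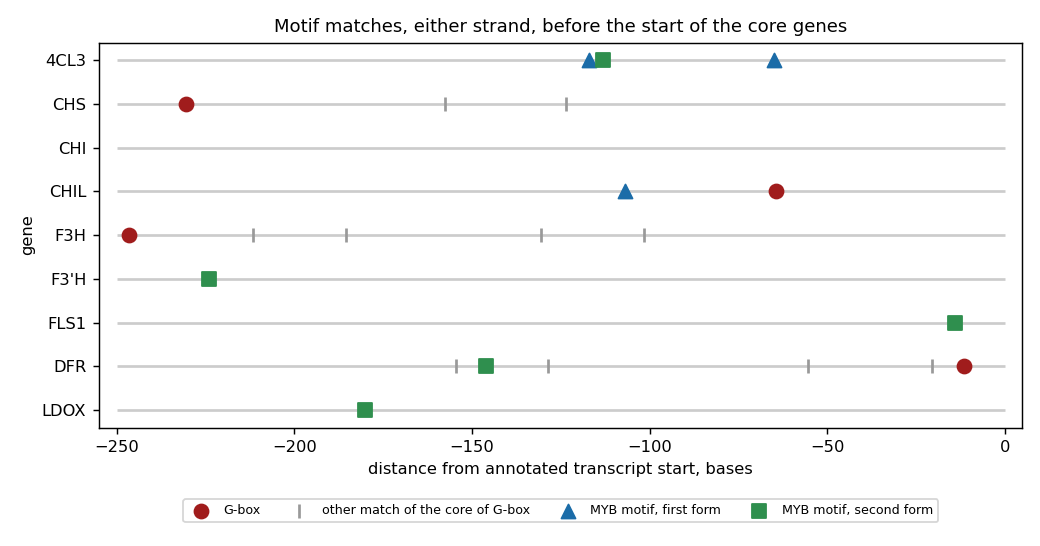
Matches of 3 motifs and of the ACGT core in the 250 bases before the annotated transcript start of each core gene, on either strand; the x axis is the distance from the start in bases. The G-box lies in the windows of CHS, CHIL, F3H and DFR, and the CHI window holds none of the motifs drawn.

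Light for 6 h came with higher levels of all 9 genes, from the supply of precursor to anthocyanidin. CHS was the most abundant of them in light, at 1809 FPKM, above 99.9% of genes with a single entry. The smallest ratio was that of F3'H, 15.6-fold, and the largest that of DFR, whose dark level was close to 0. For all genes analysed in that table, 12.7% were called higher and 10.5% lower, and the median log2 fold was 0.01. With 1 FPKM added to both groups the shares were 9.98% and 8.03%, and all 9 core genes were still called higher. The genes analysed reached 1 FPKM in the higher group, so DFR and LDOX, at most 0.106 FPKM in the dark, could enter only if they were called higher. F3H, FLS1 and 4CL3 were also under 1 FPKM in the dark and could enter only by being higher in light.

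4CL3 encodes the 4-coumarate-CoA ligase that serves the flavonoid path, and it was 0.564 FPKM in darkness and 42.5 FPKM after light. Its log2 fold was 6.24, and 4.80 with 1 FPKM added to both groups. The related ligases of general phenylpropanoid metabolism, 4CL1 and 4CL2, were 108 and 36.0 FPKM in the dark and 125 and 37.3 FPKM in light. 4CL3 thus started far below its relatives and in light exceeded 4CL2 but not 4CL1.

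CHS, which joins p-coumaroyl-CoA with malonyl-CoA, went from 4.88 FPKM in the dark to 1809 FPKM in light. CHI, the isomerase that closes the ring of the chalcone, was 7.80 FPKM in darkness and 330 FPKM after light, a log2 fold of 5.40. CHIL, a non-catalytic relative of CHI that assists chalcone synthase, was 2.40 FPKM in darkness and 264 FPKM after light, a log2 fold of 6.78. In the dark CHI was the highest of the 9 genes and CHS second in the light and det1-1 tables, while the pifq table put F3H above both. In light CHS stood 5.49-fold above CHI and 6.85-fold above CHIL.

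F3H, the dioxygenase that makes dihydroflavonols, went from 0.721 to 505 FPKM (log2 fold 9.45, and 8.20 with 1 FPKM added) and was second to CHS in light. F3'H, the cytochrome P450 that adds the second hydroxyl of the B ring, went from 2.83 to 44.0 FPKM (log2 3.96, and 3.56 with 1 FPKM added). F3H was thus 11.5-fold above F3'H in light, though lower than F3'H in the dark in the light and det1-1 tables. In the pifq table the same dark libraries had F3H 18.6-fold above F3'H. The annotated antisense gene AT3G51238 overlaps F3H. It was 0.0386 FPKM in darkness and 5.30 FPKM after light, and without stated strand handling its reads cannot be told apart from those of F3H. The same limit holds for CHS, which AT5G13940 overlaps on the opposite strand.

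FLS1, the main flavonol synthase, was 0.577 FPKM in darkness and 291 FPKM after light, a log2 fold of 8.98. DFR was 0.0111 FPKM in darkness and 45.0 FPKM after light. LDOX, the dioxygenase that makes anthocyanidins, was 0.106 FPKM in darkness and 54.5 FPKM after light. Both anthocyanin genes were thus close to 0 in the dark and stood in light beside F3'H and 4CL3, the 4 lying between 42.5 and 54.5 FPKM. With 1 FPKM added the log2 folds of FLS1, LDOX and DFR were 7.53, 5.65 and 5.51, so that FLS1 and not DFR had the largest of the 3. Of the 32-base stretches in their exons, 4.27% for DFR and 6.35% for LDOX occur elsewhere in the genome, against 0% for the other 7 genes, so a small part of their reads may be shared.

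**Figure D2:**
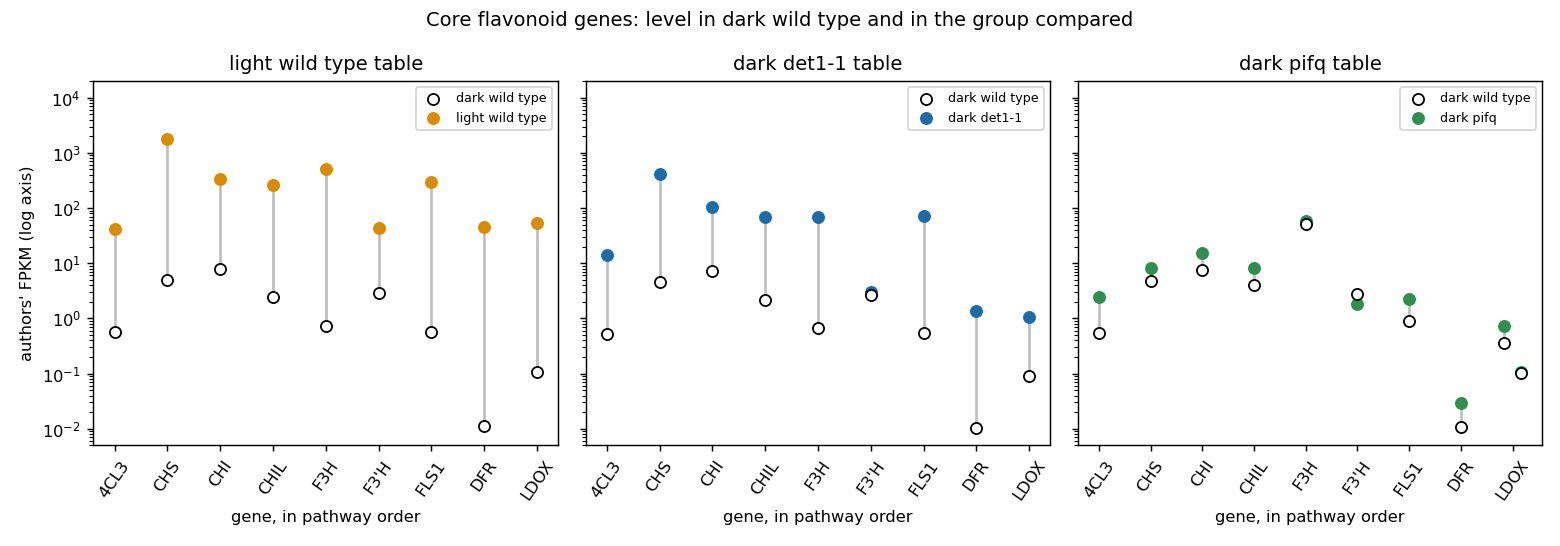
Authors' FPKM (log axis) of each core gene in dark wild type (open circles) and in the group compared (filled circles), 1 panel per table; LDOX has 2 entries in the pifq table. All 9 genes are higher in light, F3'H barely differs in det1-1, and F3H in dark wild type is 51.0 FPKM in the pifq table only.

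In dark det1-1, 8 of the 9 genes were called higher, where 17.9% of all genes analysed were called higher and 9.43% lower (median log2 fold -0.01). The early genes other than F3'H, and FLS1, reached 14.2 to 411 FPKM, and DFR and LDOX stayed near 1 FPKM. F3'H was the exception: it was 2.62 FPKM in the dark reference and 3.06 FPKM in det1-1, a log2 fold of 0.22. DFR and LDOX could again enter the genes analysed only if called higher, and the dark levels of F3H, FLS1 and 4CL3 were under 1 FPKM.

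CHS was 4.53 FPKM in the dark reference and 411 FPKM in det1-1, a log2 fold of 6.50. CHI was 7.24 and 105 FPKM (log2 3.86), CHIL was 2.20 and 69.9 FPKM (log2 4.99), and 4CL3 was 0.523 and 14.2 FPKM (log2 4.76). These 4 genes serve the first steps of the flavonoid path. F3H was 0.669 and 69.6 FPKM (log2 6.70) and FLS1 was 0.535 and 71.2 FPKM (log2 7.06). CHIL, F3H and FLS1 stood close together in det1-1, between 69.6 and 71.2 FPKM, where in light they were spread from 264 to 505 FPKM.

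DFR was 0.0103 FPKM in the dark reference and 1.38 FPKM in det1-1, and LDOX was 0.0906 and 1.07 FPKM. Their log2 folds, 7.07 and 3.56, rest on dark levels near 0. With 1 FPKM added to both groups they were 1.24 for DFR and 0.92 for LDOX, under 2-fold, so the count of called genes was 7 of 9, where 14.5% of all genes were called higher and 6.54% lower on that scale. The other genes had log2 folds of 3.32 (4CL3) to 6.22 (CHS) on that scale, leaving out F3'H at 0.17. The antisense gene AT3G51238 at F3H was 0.0358 FPKM in the dark reference and 0.464 FPKM in det1-1.

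In dark pifq the ratios of the genes analysed ran from 0.671-fold for F3'H to 4.45-fold for 4CL3. Of the 7 that could be analysed, 4 were called higher (CHI, CHIL, FLS1 and 4CL3), where 13.2% of all genes analysed were called higher and 13.4% lower (median log2 fold 0.01). FLS1 and 4CL3 were under 1 FPKM in dark wild type and could enter only by being higher in pifq. With the dark reference of that table, CHI and CHIL were at the edge of the call. With 1 FPKM added only 4CL3 stayed past 2-fold, where 9.66% of all genes were called higher and 10.5% lower. With 5 FPKM added no core gene did.

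4CL3 had the largest ratio, from 0.546 FPKM in dark wild type to 2.43 FPKM in pifq, a log2 fold of 2.15. FLS1 was 0.886 and 2.24 FPKM (log2 1.34), CHI was 7.59 and 15.5 FPKM (log2 1.03) and CHIL was 3.99 and 8.12 FPKM (log2 1.02). CHS was 4.76 FPKM in the dark reference and 8.26 FPKM in pifq (log2 0.80), under 2-fold. The enzyme that led in light and in det1-1 thus stood below CHI in pifq, at 0.535 times its level. It also stood below CHI in the dark reference, at 0.627 times its level, so this is not particular to pifq. F3'H was 2.75 and 1.84 FPKM (log2 -0.58).

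DFR was 0.0107 FPKM in the dark reference and 0.0296 FPKM in pifq. LDOX had 2 entries in that table, at 0.359 and 0.726 FPKM and at 0.103 and 0.109 FPKM in wild type and pifq. No entry of either anthocyanin gene reached 1 FPKM in pifq, and neither was analysed. F3H was 51.0 and 58.3 FPKM within the table (log2 0.19). Against the dark wild type of the other tables the same pifq value would give a log2 fold of 6.38, so its ratio is set by which quantification of the dark libraries is used.

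**Figure D3:**
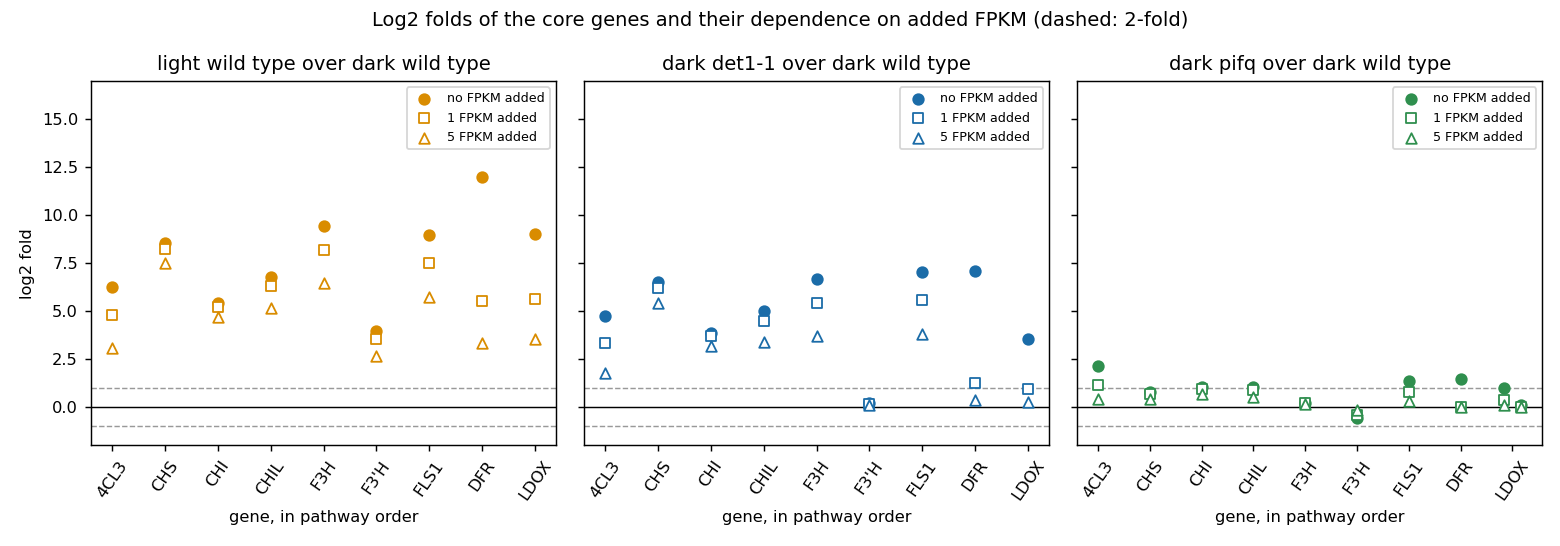
Log2 fold of each core gene over dark wild type, from the FPKM values (filled circles) and with 1 FPKM (squares) or 5 FPKM (triangles) added to both groups; dashed lines mark 2-fold. DFR falls from 11.99 to 5.51 in light with 1 FPKM added, DFR and LDOX come down to 1.24 and 0.92 in det1-1, and in pifq the FPKM ratios reach a log2 fold of 2.15 for 4CL3 and 1.34 for FLS1, of which 4CL3 alone stays past 2-fold with 1 FPKM added.

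All 9 genes were higher in light than in det1-1, with levels set across separately normalized tables after scaling on dark wild type. CHS, CHI, CHIL, FLS1 and 4CL3 were 6.13-fold to 52.1-fold higher in det1-1 than in pifq on that scale. F3'H was 1.74-fold higher. DFR was 48.9-fold higher, at 1.49 FPKM in det1-1 and 0.0305 FPKM in pifq, a ratio that rests on a pifq level near 0. F3H and LDOX were 1.25-fold and 1.34-fold higher, less than the gap between the tables for the same dark libraries, so no order of det1-1 and pifq is given for them. The distance between light and det1-1 differed widely by step. It was smallest for 4CL3 (2.78-fold) and CHI (2.92-fold), followed by CHIL (3.50-fold), FLS1 (3.79-fold) and CHS (4.08-fold). It was 6.72-fold for F3H, 13.3-fold for F3'H, 30.2-fold for DFR and 47.4-fold for LDOX. DFR and LDOX, of the anthocyanin branch, thus stood furthest apart, also with 1 FPKM added (18.5-fold and 25.8-fold), with F3'H next (10.4-fold). As a share of its level in light, CHS in det1-1 was 24.5%, F3'H 7.52%, DFR 3.31% and LDOX 2.11%. No spread between libraries is at hand, so neighbours in this order are not shown to differ.

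**Figure D4:**
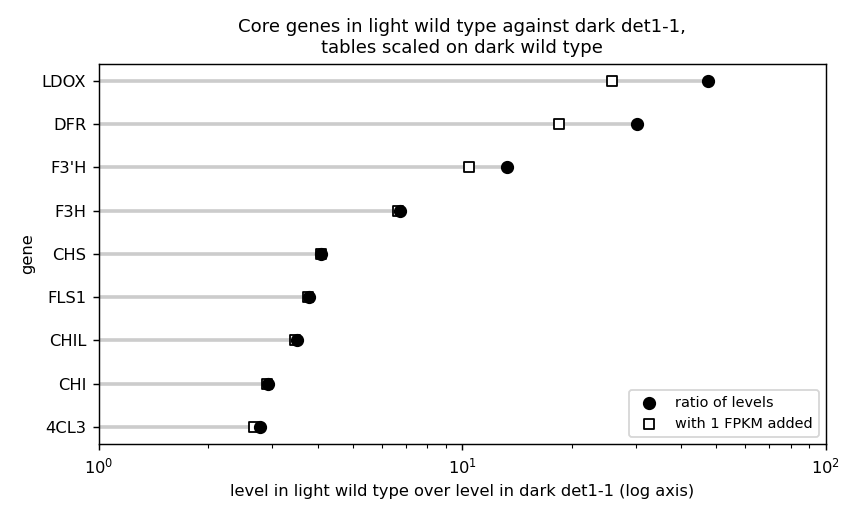
Level of each core gene in light wild type over that in dark det1-1 (log axis), after scaling the tables on dark wild type, from FPKM (circles) and with 1 FPKM added (squares). The ratio runs from 2.78 for 4CL3 to 47.4 for LDOX.

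FLS1 and DFR draw on the same dihydroflavonols, so their levels were set side by side within each group. In light FLS1 was 6.46-fold above DFR and 5.34-fold above LDOX. In det1-1 it was 51.5-fold above DFR and 66.7-fold above LDOX, or 30.3-fold and 34.9-fold with 1 FPKM added. Both groups thus had more FLS1 than anthocyanin branch transcript, and det1-1 by a wider margin. Dark wild type and pifq had under 1 FPKM of DFR and LDOX, and no ratio is given for them. F3'H stood apart in the same way: CHS was 41.1-fold above F3'H in light and 134-fold above it in det1-1.

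The enzymes that decorate flavonoids and the transport gene GSTF12 formed a list of 13 genes, of which 10 were in the tables. UGT78D2, SCPL10 and BGLU10 were not listed. In light all 10 were called higher (median log2 fold 5.09, and 3.88 with 1 FPKM added), where 12.7% of all genes were, and 5 of them (UGT79B1, UGT75C1, 5MAT, 3AT2 and GSTF12) had under 1 FPKM in darkness and could enter only by being higher. In det1-1, 8 could be analysed and 6 were called higher (median 1.84, and 1.21 with 1 FPKM added), where 17.9% of all genes were. Of these, 5MAT, 3AT2 and GSTF12 had under 1 FPKM in dark wild type and could enter only by being higher. Over all 10 genes the median with 1 FPKM added was 0.90. UGT78D3, a flavonol glycosyltransferase, went from 2.06 to 145 FPKM in light and from 1.86 to 44.9 FPKM in det1-1. Since its relative UGT78D2 is not listed, whether reads of that gene were counted with UGT78D3 cannot be told. UGT79B1, which adds xylose to anthocyanins, was 19.9 FPKM in light but 0.908 FPKM in det1-1, from 0.0651 and 0.0604 FPKM. GSTF12, needed for anthocyanin transport to the vacuole, was 52.4 FPKM in light and 4.57 FPKM in det1-1, from 0.155 and 0.144 FPKM. RHM1, which makes the UDP-rhamnose used for flavonols, was 330 FPKM in light and 61.5 FPKM in the dark, but in det1-1 it was 51.0 against 57.0 FPKM.

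In pifq, 5 of the decoration genes could be analysed and 2 were called higher and 0 lower (median -0.34), against 13.2% and 13.4% of all genes. Both were flavonol glycosyltransferases. UGT78D1 was 2.53 FPKM in the dark reference and 14.7 FPKM in pifq, above its 10.5 FPKM in det1-1, and UGT78D3 was 6.31 FPKM in pifq, 3.15-fold its reference. GSTF12 was 0.150 and 0.0406 FPKM. The genes of proanthocyanidin synthesis, a branch of the seed coat that shares the core enzymes (BAN, TT2, TT10, TT12 and AHA10), summed to 0.350 to 0.740 FPKM in every group, 1 or 2 of the 5 being listed at 0, BAN at 0 in dark wild type in every table.

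Among 20 regulators, 9 of 16 analysed were called higher and 0 lower in light, 5 higher and 2 lower of 14 in det1-1, and 1 higher and 4 lower of 12 in pifq (median log2 folds 1.49, 0.36 and -0.32). The shares over all genes were 12.7% and 10.5% in light, 17.9% and 9.43% in det1-1, and 13.2% and 13.4% in pifq. In light 5 of the 9 (MYB12, MYB111, PAP2, TT8 and GL3) had under 1 FPKM in darkness and could enter only by being higher, as could MYB12, MYB111 and TT8 in det1-1 and MYB111 in pifq. With 1 FPKM added the median in light was 0.79, and 0.71 over the 19 regulators with a single entry, both under 2-fold. MYB12, a flavonol activator, was 0.369 FPKM in darkness and 40.1 FPKM after light. It was 0.342 and 7.48 FPKM in the comparison with det1-1, and 0.358 and 0.133 FPKM in that with pifq. MYB12 thus had the order light above det1-1 above pifq, as did CHS, CHI, CHIL, F3'H, FLS1, DFR and 4CL3 on the scaled levels. In pifq MYB12 was below its dark reference, both under 1 FPKM, while FLS1 was above its own (2.24 against 0.886 FPKM). MYB111, also a flavonol MYB, was above its reference there, as FLS1 was (1.91 against 0.607 FPKM, 3.15-fold). It was 0.625 and 7.66 FPKM in light and 0.579 and 2.22 FPKM for det1-1. MYB11, of the same flavonol group, was 0.0171 FPKM in the dark reference and 0 FPKM in pifq.

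PAP1, a MYB activator of anthocyanin genes, was 1.77 FPKM in darkness and 14.7 FPKM after light. It was 1.64 FPKM in the dark reference and 0.382 FPKM in det1-1, and 1.71 and 0.159 FPKM in the comparison with pifq. PAP1 was thus 8.30-fold higher in light but 4.29-fold lower in det1-1 and 10.8-fold lower in pifq, though with 1 FPKM added the log2 folds were -0.93 in det1-1, under 2-fold, and -1.23 in pifq. TT8, the bHLH partner, was 3.22 FPKM in light and 1.16 FPKM in det1-1, from 0.0209 and 0.0193 FPKM. TTG1, the WD40 partner, differed by less than 2-fold everywhere, between 22.7 and 32.6 FPKM.

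MYBL2, a repressor of anthocyanin genes, was 44.8 FPKM in darkness and 38.1 FPKM after light. It was 41.5 and 164 FPKM in the comparison with det1-1, and 46.6 and 7.67 FPKM in that with pifq. The 2 mutants thus stood on opposite sides of dark wild type for this gene. HY5, a bZIP activator of light-responsive genes, was 29.5 and 115 FPKM in light, 27.4 and 35.0 FPKM for det1-1, and 28.8 and 12.4 FPKM for pifq. HYH, its homologue, had 2 entries in each table and was not counted, but both entries were higher in light (6.89 to 166 FPKM and 5.45 to 80.0 FPKM) and in det1-1 (6.39 to 54.1 FPKM and 5.05 to 44.0 FPKM). In pifq they were also over 2-fold higher (6.10 to 14.1 FPKM and 0.274 to 0.846 FPKM). The second entry was under 1 FPKM in both groups there. For the same dark libraries it was 0.274 FPKM beside pifq but 5.45 FPKM beside light, so its ratio in pifq is less secure.

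Of the general phenylpropanoid genes upstream, 6 of 12 were called higher and 0 lower in light (median log2 fold 0.97), against 12.7% and 10.5% of all genes. In det1-1, 2 were higher and 1 lower of 12 (median -0.26), and in pifq 1 was higher and 0 lower of 10 (median -0.27). The shares over all genes were 17.9% and 9.43% in det1-1 and 13.2% and 13.4% in pifq, so these counts are near the background and say nothing particular of the list. PAL1, a phenylalanine ammonia-lyase that opens the pathway, was 130 FPKM in darkness and 444 FPKM after light, and C4H, the next enzyme, was 154 and 425 FPKM. In det1-1 PAL1 was 102 against 118 FPKM, and C4H 112 against 143 FPKM, so the entry enzymes did not share the large ratios of CHS and 4CL3 there. F5H1, of the branch to sinapate and syringyl lignin, was 7.38 and 64.8 FPKM in the comparison with det1-1. ACC1, the cytosolic carboxylase that makes malonyl-CoA, was 53.9 and 113 FPKM in light and 47.5 and 42.9 FPKM for det1-1, and ATR1, a reductase that serves cytochrome P450 enzymes, was 147 and 71.1 FPKM in light.

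Of 8 relatives from the gene families of the core enzymes, 1 was called higher and 1 lower in light (median log2 fold -0.19), near the 12.7% and 10.5% of all genes. In det1-1, 2 were higher and 3 lower of 8 (median -0.63), where 17.9% and 9.43% of all genes were. In pifq 1 was higher and 1 lower of 7 (median -0.42), where 13.2% and 13.4% of all genes were. FLS5 and FLS3, members of the flavonol synthase family, were 280 and 34.7 FPKM in the dark, far above FLS1. In light they were 101 and 28.6 FPKM. Beside pifq, FLS5 is not listed and FLS4 is 282 FPKM for the same dark libraries, against 16.6 FPKM beside light. The level given to FLS5 is therefore less secure. DRL1, a relative of DFR, was 5.25 FPKM in darkness and 15.1 FPKM after light.

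**Figure D5:**
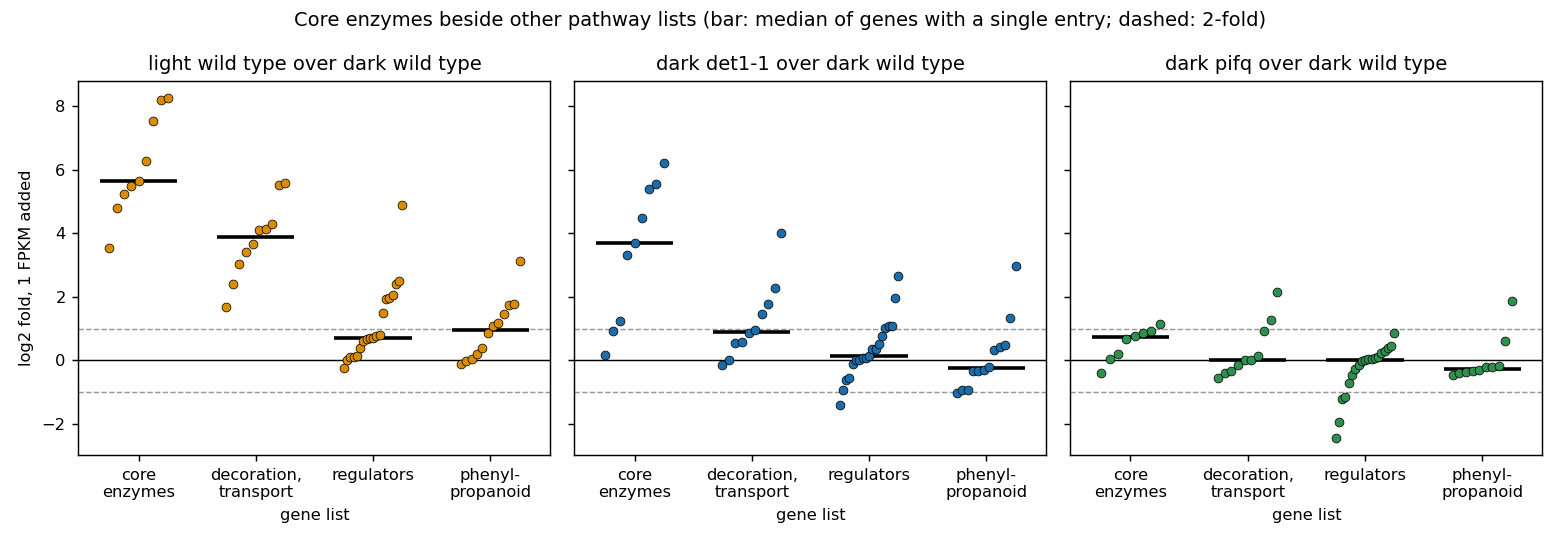
Log2 fold with 1 FPKM added of every gene with a single entry in 4 lists, 1 panel per comparison; bars are medians and dashed lines mark 2-fold. The core enzymes have the highest median in each panel, 5.65 in light, 3.68 in det1-1 and 0.73 in pifq, the last under 2-fold.

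Genes outside these lists were ranked by how near their 3 log2 folds (1 FPKM added) lay to those of a core gene, over 13176 genes that reached 5 FPKM in some group. Nearest to CHS were MSRB6, a methionine sulfoxide reductase (Euclidean distance 2.07), AT3G56290 (2.26), AT3G52740 (2.51), FADA, a plastid fatty acid desaturase (2.55), and ELIP2, a light-stress protein of the thylakoid (2.65). None was close on this scale, since CHS had larger values in light and det1-1 than all 5. Nearest to DFR were UGT84A2, which glucosylates sinapate (0.926), AT2G23910 (0.933), XTH32, a wall enzyme (0.978), ELF4, a clock gene (1.19), and AT3G10185 (1.23), which is listed at 0 in dark wild type. UGT84A2 was 13.9 and 372 FPKM in light, 12.9 and 36.6 FPKM for det1-1, and 13.5 and 16.8 FPKM for pifq. The dark wild type value of XTH32 was 8.75 FPKM beside light but 76.6 FPKM beside pifq, so its likeness is uncertain.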

How the data were processed

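RNA from seedlings was sequenced by the authors in 12 libraries, 3 per group. Per the submitters' processing notes, TopHat and Cufflinks were used with TAIR10; the sources used here give no version, setting, annotation or strand handling. Deposited values are FPKM, 1 for each gene in each group, in 3 separately normalized tables, and a log2 ratio of the 2 values, per the file headers; the unit FPKM was taken from Cufflinks and the values. Depth is unknown and no test was possible.

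Named genes with a single entry, values above 0 in both groups, a ratio made by the authors' program and at least 1 FPKM in the higher group were analysed: 17039, 16642 and 17253 genes for light, det1-1 and pifq. Log2 folds were computed from FPKM with no pseudocount, and again with 1 FPKM added; a call means 2-fold. Entries without a gene name (291, 291 and 231) were left out. All 9 core genes, every list member and the 5 genes nearest to CHS and to DFR could be named. The members and lists were chosen with earlier results of these data known. Motifs were searched in TAIR10.1 with RefSeq annotation (27442 genes). The alternatives added FPKM, changed the minimum, centring, reference, tolerance between tables and promoter window. The calls and the scan were tested on simulated data. Python 3.11.15 and pandas 2.3.3 were used.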

Additional observations from a re-analysis of the deposited data

How the results depend on the processing

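Of 223 recomputed log2 folds of single core genes, 212 kept their side of 2-fold, 10 dropped under it and 1 passed it. Those under it were LDOX in det1-1, CHI, CHIL and FLS1 in pifq with 1 FPKM added, and DFR and LDOX in det1-1, CHI, CHIL, FLS1 and 4CL3 in pifq with 5 FPKM added. F3H in pifq, at 6.38 with a dark wild type common to the tables, passed it. All of these changes came with FPKM added or with the common dark wild type. The other settings chose genes again or took the deposited ratio, so their folds could not move, and centring shifted folds by only about 0.01. The 212 are therefore no measure of how robust the folds are. The count of core genes higher in pifq, 4 of 7, was 1 with 1 FPKM and 0 with 5 FPKM added, 2 of 4 with a minimum of 5 FPKM, and 2 of 4 where dark wild type had to agree within 1.5-fold. That tolerance left 5 of 6 in det1-1. The stricter minimum and the tolerance keep fewer genes. The pifq count was 5 of 7 with the common dark wild type and 5 of 8 with no minimum. Leaving out F3H, or adding the 2 LDOX entries, choices made after seeing the data, left 4. Neither could change the count, since F3H was not called and the LDOX entries together stayed under 1 FPKM.

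FLS1 over DFR and over LDOX in det1-1 was 30.3 and 34.9 with 1 FPKM added. With 1 FPKM added, 1 of 14 regulators was lower in det1-1, where 6.54% of all genes were. There 1 of 8 relatives was higher, where 14.5% of all genes were. In pifq 0 of 12 regulators were higher on that scale, where 9.66% of all genes were. With no minimum, 3 of 10 relatives were lower in light. In pifq 4 of 10 decoration genes were then higher and 1 lower, and 3 of 16 regulators were higher. The share over all genes was not computed without a minimum, so nothing is read from these counts. In 100 bases before the start, CACGTG and ACGT each matched 2 core genes, and ACCTANC and ACCAANC 1 each. In 250 bases before the start codon, CACGTG matched 2, CACGTA or TACGTG 2, ACCTANC 5 and ACCAANC 3. The causes were not tested.

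No paired analysis was possible because the tables hold no values per library, and leaving out replicates was not run for the same reason. Protein identity was not run, since no protein table was used here. Values under 1 FPKM carry the least certainty, to a degree that unknown depth leaves unstated.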
